A study of Mus musculus with 4 samples.

Results

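The genes of calcium release and handling in skeletal muscle followed here, Casq1, Casq2, Ryr1, Atp2a1, Sln, Cacna1s, Jph1, Jph2, Pvalb and Trdn, were measured in full-thickness back skin of mice lacking Fgf18 in keratin 5-positive epithelium. They were taken by gene name from the non-control probes of 4 one-colour arrays, with every probe of each gene. This gave 10 of 28034 gene names and 19 of 41174 probes. The tested material, called cKO, was skin of Fgf18 cKO males of the C57BL/6 strain, and its comparison, called WT, was skin of C57BL/6 males. All mice were 42 days old and all skin was labelled as telogen, when hair follicles rest. Each genotype was represented by RNA of 3 mice mixed into 1 pool, which was run on 2 arrays. The labels name neither the Cre driver nor littermate controls, and the 2 arrays of a group are technical duplicates of 1 pool. Every error and p-value below therefore measures the spread between duplicate arrays, and the tests compare 2 pools, not 2 genotypes.

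In a muscle fibre, an action potential runs along the transverse tubules, where a voltage-sensing calcium channel faces the release channels of the sarcoplasmic reticulum across a narrow junction called the triad. Opening of the release channels lets stored calcium flood the sarcomeres and starts contraction. Pumps then return the ion to the store, helped in fast fibres by soluble calcium buffers. In mouse back skin such fibres lie in the panniculus carnosus, a thin sheet of striated muscle under the subcutaneous fat, which full-thickness samples can include.

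All 10 genes gave lower signal in the cKO pool, by 1.39-fold to 1.79-fold. Of the 10 members, 8 fell (adjusted p under 0.05 in limma and at least 1.5-fold), against 4.82% of the 17555 genes tested, and none rose, against 5.67%. At the representing probe, all 10 members were well above background on all 4 arrays, so none entered through 1 group alone. Both cKO arrays lay under both WT arrays for 10 of 10 members, an ordering that 48.1% of all genes tested showed. Without regard to fold, all 10 members had an adjusted p under 0.05, as did 33.6% of all genes in the lower direction. The median log2 change of the members, cKO minus WT, was -0.65, against -0.05 over all genes tested, and 4.31% of all genes had a change as low as that median or lower. Because whole skin was measured, fewer muscle fibres in a sample and less of these RNAs per fibre cannot be told apart.

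**Figure D1:**
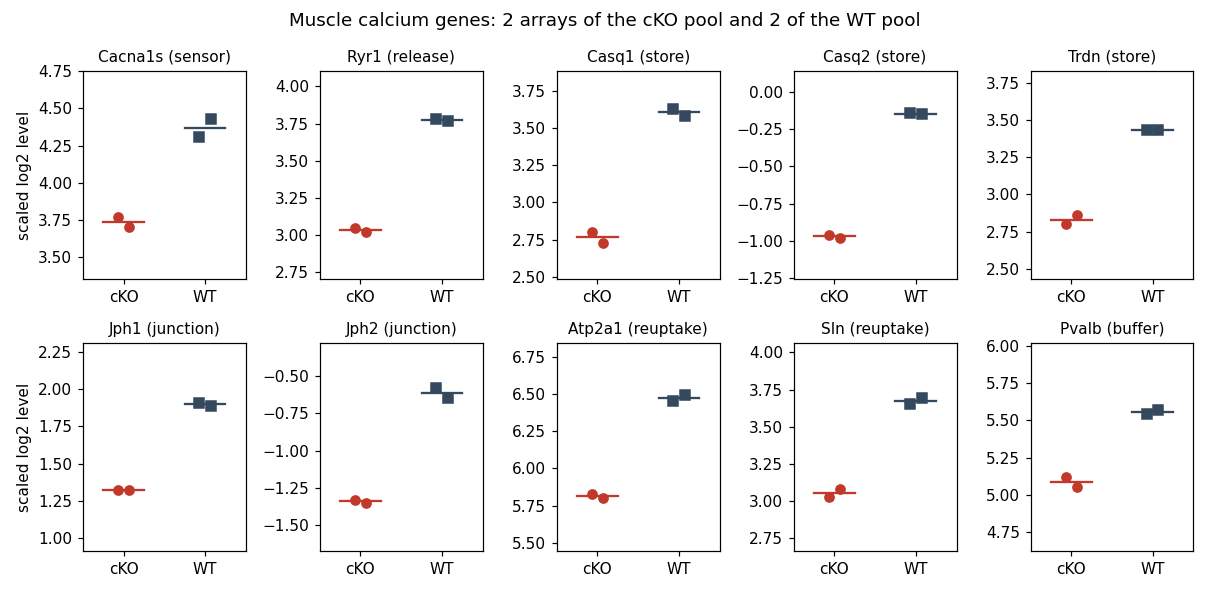
Scaled log2 level (log2 of the processed signal over the 75th percentile of its array) of each muscle calcium gene, with each array as a point, the mean of the 2 arrays as a line, cKO in red circles and WT in dark squares. Each panel spans the same log2 distance, and in all 10 panels both cKO arrays lie below both WT arrays, by 0.42 (Pvalb) to 0.81 (Casq2) between the nearest arrays.

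The 4 probes that the Casq1 and Ryr1 results rest on are shown first, as the array design gives them, 5′ to 3′. The Casq1 probe and 2 of the 3 Ryr1 probes cover more genome than their 60 bases, as probes do that cross from one exon to the next. The remaining Ryr1 probe, designed on the cDNA clone AK042482, lies 17109 bases from the nearest of the other two on chromosome 7, and is shown because its values differed from theirs.
Casq1 (mm9 chr1:174140602-174142105, minus strand): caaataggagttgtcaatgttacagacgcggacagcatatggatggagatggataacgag
Ryr1, mRNA position 15052 (mm9 chr7:29788789-29789487, minus strand): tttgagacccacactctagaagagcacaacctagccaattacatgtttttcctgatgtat
Ryr1, mRNA position 14919 (mm9 chr7:29789818-29790524, minus strand): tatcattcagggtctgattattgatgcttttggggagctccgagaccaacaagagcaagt
Ryr1, clone AK042482 (mm9 chr7:29807633-29807692, minus strand): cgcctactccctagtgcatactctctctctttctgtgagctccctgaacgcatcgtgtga
No gene models of mm9 were used, so the exon or intron under the clone probe is not stated.

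Of the voltage sensor and release channel, both genes fell. Cacna1s encodes the pore-forming, voltage-sensing subunit of the L-type calcium channel of the transverse tubule. Its processed signal reached 19102 and 18871 on the cKO arrays, against 25275 and 28274 on the WT arrays. The groups did not overlap, although the WT duplicates stood further apart than those of the other members. The log2 change was -0.64 (SE 0.0552, limma adjusted p = 0.0044), or 64.3% of WT. A further Cacna1s probe, 60 bases long but spanning 1969 bases of chromosome 1, had signals of 76 and 81 in cKO, against 131 and 123 in WT. It was also lower, with a log2 change of -0.85 (limma adjusted p = 0.00442 in the fit over 26070 kept probes). Without WT replicate 2 the representing probe gave -0.58, short of 1.5-fold. The same held with normexp and quantile normalization (-0.53), with quantile normalization (-0.49) and with unscaled signals (-0.49).

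Ryr1, the calcium release channel of skeletal muscle sarcoplasmic reticulum, fell 1.67-fold. Its signal was 11616 and 11825 on the cKO arrays, against 17438 and 17962 on the WT arrays. Duplicates differed by at most 0.0255 on the log2 scale, and the nearest arrays of the 2 pools by 0.72. The log2 change was -0.74 (SE 0.0242, limma adjusted p = 0.00118). The neighbouring probe at mRNA position 14919 gave 9023 and 9460 in cKO, against 14215 and 14542 in WT, a log2 change of -0.78. The AK042482 clone probe gave 338 and 347 in cKO, against 301 and 356 in WT, and here the pools overlapped (log2 change -0.08, limma adjusted p = 0.46 over all kept probes). With the mean of the 3 probes Ryr1 had a log2 change of -0.53 and was no longer past 1.5-fold, so its call rests on the 2 probes printed first.

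Both calsequestrins fell, as did triadin, which anchors calsequestrin in the store. Casq1 encodes calsequestrin 1, the main calcium-binding protein in the store of fast fibres, and Casq2 encodes the isoform of heart and slow fibres. Casq1 had signals of 9765 and 9669 in cKO, against 15717 and 15781 in WT. Casq2 had 719 and 735 in cKO, against 1154 and 1182 in WT. Both pairs of groups were clearly separated, and duplicates lay close together. The log2 change of Casq1 was -0.84 (SE 0.0373, limma adjusted p = 0.0017), or 55.9% of WT. That of Casq2 was -0.83 (SE 0.0239, limma adjusted p = 0.000966), or 56.4% of WT. The fast-fibre and the slow-fibre calsequestrin thus had nearly the same log2 change, and each kept its call under all 17 alternative settings. Triadin, encoded by Trdn, is a membrane protein of the junctional reticulum that binds both calsequestrin and the release channel. Its representing probe had 9770 and 10531 in cKO, against 13668 and 14157 in WT, and it fell by 0.60 on the log2 scale (SE 0.031, limma adjusted p = 0.00205). The 3 further Trdn probes, from mRNA position 413 to position 3976, gave log2 changes of -0.73, -0.77 and -0.60, and in each the cKO arrays lay under the WT arrays. The dimmest of them had 129 and 155 in cKO, against 198 and 240 in WT. The Trdn call was lost without cKO replicate 1, where the log2 change was -0.57. The call was also lost with normexp and quantile normalization (-0.53), with quantile normalization (-0.51) and with unscaled signals (-0.46).

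The junctophilins, which tie the reticulum to the transverse tubule, gave a divided call with similar values. Jph2, the main junctophilin of heart that is also made in skeletal muscle, had signals of 557 and 569 in cKO, against 851 and 836 in WT. The groups did not overlap and it fell by 0.73 on the log2 scale (SE 0.037, limma adjusted p = 0.00199). Jph1, the skeletal muscle junctophilin, had 3512 and 3627 in cKO, against 4792 and 4890 in WT. These groups did not overlap either, but the log2 change of -0.58 (SE 0.0234, limma adjusted p = 0.00149), 66.8% of WT, stopped just short of the 1.5-fold threshold. It passed that threshold by a small margin with median scaling (-0.58), with the authors' processed values (-0.59) and without WT replicate 2 (-0.59). The other Jph1 probe gave the same change, -0.58, from signals of 243 and 241 in cKO, against 320 and 336 in WT. A probe outside the rule, which the array design lists under an Ensembl transcript and describes as junctophilin 2, had 3604 and 3630 in cKO, against 4406 and 4601 in WT. Its log2 change was -0.46 (limma adjusted p = 0.00377 over all kept probes), and it was not called. Since it was brighter than the Jph2 probe, the Jph2 call, and with it the count of 8 members, depends on the array's naming of these probes.

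**Figure D2:**
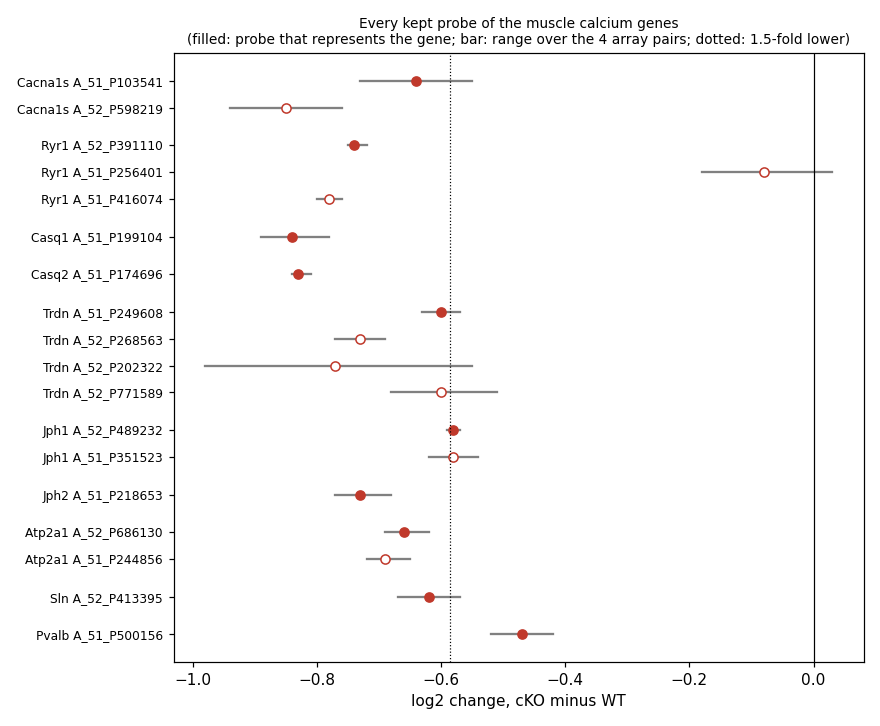
Log2 change (cKO minus WT) of each of the 18 kept probes of the muscle calcium genes, with filled points for the probe that represents its gene and bars for the range over the 4 pairs of a cKO and a WT array. In 17 of the 18 probes the whole range is below 0, and the exception is the AK042482 clone probe of Ryr1 (A_51_P256401).

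Of the genes that return or buffer calcium, those of the pump and its inhibitor fell. Atp2a1 encodes SERCA1, the calcium pump of fast fibres. Its signal was 79783 and 80881 on the cKO arrays, against 111276 and 118379 on the WT arrays. The groups did not overlap, and the log2 change was -0.66 (SE 0.0295, limma adjusted p = 0.00172). Its second probe, with 22504 and 22562 in cKO, against 32551 and 33151 in WT, gave -0.69. The Atp2a1 call was lost with either form of quantile normalization (-0.42 each) and with unscaled signals (-0.51). Sarcolipin, encoded by Sln, is a small membrane peptide that inhibits the pump. It had 11441 and 12331 in cKO, against 15997 and 17019 in WT, again without overlap, and fell by 0.62 on the log2 scale (SE 0.0346, limma adjusted p = 0.00224). The Sln call was lost with either form of quantile normalization (-0.50 each) and with unscaled signals (-0.47). A further Sln probe, on the clone AK009809, was not well above background on any array and was left out. Pvalb encodes parvalbumin, the soluble calcium buffer of fast fibres. It had 48769 and 48151 in cKO, against 59279 and 62406 in WT. The groups did not overlap, but at 72.2% of WT (log2 change -0.47, SE 0.0359, limma adjusted p = 0.00354) the change was the smallest among the members and under the fold threshold in every setting.

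Over all probes, 14 of the 18 kept member probes were called lower and 0 were called higher in the fit over all kept probes, in which 4.80% of probes were called lower. The 4 that were not called lower were both Jph1 probes, the Pvalb probe and the clone probe of Ryr1. Differences in size between one member and another were not tested.

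Genes that work beside the members in the triad were mostly lower as well. Of 24 further triad and excitation-contraction coupling genes 22 were tested, and 9 fell, against 4.82% of all genes tested. None rose, against 5.67%, and 13 were not called (median log2 change of the 22 genes -0.57). Both cKO arrays lay under both WT arrays in 19, an ordering that 48.1% of all genes showed. Among the partners of the voltage sensor, Cacna2d1 had 818 and 848 in cKO, against 1342 and 1451 in WT, and fell 1.85-fold (limma adjusted p = 0.00135). The channel subunits Cacnb1 and Cacng1 fell by 0.75 and 0.67 on the log2 scale, so the 3 auxiliary subunits fell with the pore. The Cacng1 call was lost with unscaled signals (-0.53). Stac3, an adaptor needed for coupling the sensor to release, had -0.58 and was not called, but was past the threshold without cKO replicate 1 (-0.59) or WT replicate 2 (-0.60).

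The list also held components of the tubule membrane and the store. Cav3, the caveolin of muscle membranes, had 14785 and 15483 in cKO, against 24139 and 24783 in WT, and fell 1.78-fold (limma adjusted p = 0.00093). Bin1, which shapes transverse tubules, fell 1.61-fold at the probe with the highest signal, and the log2 change of its other probe was -1.37. Tmem38a, the TRIC-A potassium channel of the reticulum, fell 1.66-fold, Jsrp1, a junctional reticulum protein, 1.67-fold, and Sypl2, the triad protein mitsugumin 29, 1.64-fold. The Tmem38a call was lost with normexp and quantile normalization (log2 change -0.55) and with quantile normalization alone (-0.58), and the Bin1 call with both (-0.57 each) and with unscaled signals (-0.54). The Sypl2 call was lost with unscaled signals (-0.57). Asph, whose transcripts include that of junctin, a calsequestrin-binding protein, fell 1.76-fold at its brightest probe. Its other probes gave log2 changes of -0.02 and -0.21, and with the mean of probes the change was -0.35. Not all store proteins passed the threshold: the calcium-binding proteins Hrc and Srl had log2 changes of -0.40 and -0.41, against -0.84 for Casq1. S100a1, a calcium sensor that binds the release channel, had -0.15 (limma adjusted p = 0.0213). Fkbp1a (-0.16), Fkbp1b (-0.10) and Dysf (0.03) were not called either, and further uncalled genes of the list are not named.

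Calcium genes that many cell types use were mostly not called, although the called ones had log2 changes larger in size than any member's. Of 29 such genes 24 were tested, with 1 lower, 1 higher and a median log2 change of -0.18, against -0.65 for the members, a difference that was not tested. Tmem38b, the TRIC-B channel, had 80 and 80 in cKO, against 173 and 177 in WT, and fell 2.42-fold (log2 change -1.28, limma adjusted p = 0.00081). Orai2, a pore protein of store-operated calcium entry, had 475 and 560 in cKO, against 248 and 255 in WT, and rose 1.86-fold (log2 change 0.89, limma adjusted p = 0.00411). With normexp and quantile normalization the log2 change of Tmem38b was -0.72 and that of Orai2 was 0.73. Both were then smaller in size than those of Casq1 (-0.76) and Casq2 (-0.78). The inositol trisphosphate receptor Itpr3 (0.05), the calmodulin gene Calm2 (-0.17) and the luminal chaperones Calr (-0.32) and Canx (-0.19) were not called, by these log2 changes. Atp2a2, the pump isoform of slow muscle and of non-muscle cells, had 2500 and 2786 in cKO, against 2464 and 2518 in WT (log2 change -0.06, limma adjusted p = 0.341). The fast-fibre isoform Atp2a1 had -0.66, but the difference between the 2 pump genes was not tested, and Atp2a2 was singled out after its values were seen.

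**Figure D3:**
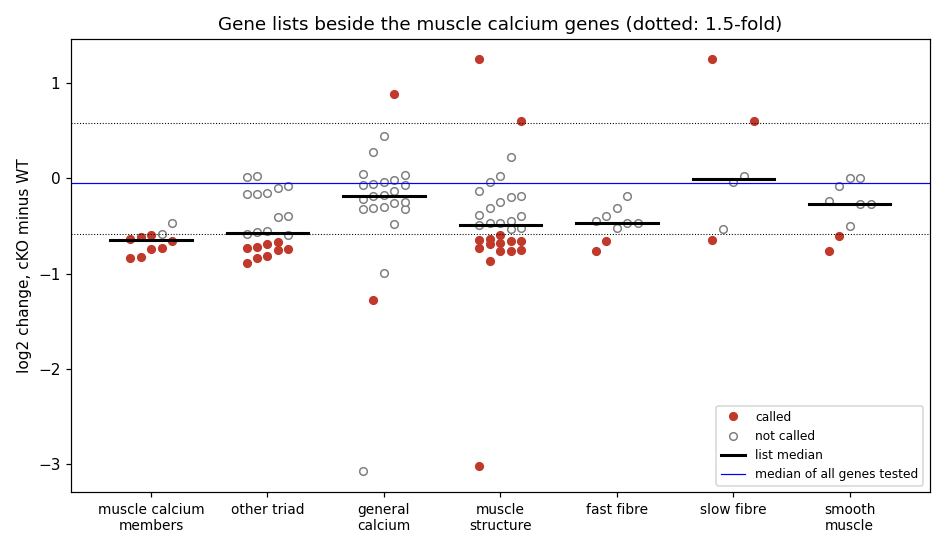
Log2 change (cKO minus WT) of every tested gene in the members' list and in 6 lists beside it, with called genes in red, other genes open, the list median as a black bar and the median of all genes as a blue line. The members lie between -0.84 and -0.47, the further triad genes between -0.89 and 0.03 and the general calcium genes between -3.08 and 0.89, and Myl2 and Myh7 lie above 0 in both the muscle structure and the slow fibre list.

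Structural genes of striated muscle were mostly lower, as the members were, but not all. Of 31 genes of contractile and metabolic muscle proteins 13 fell, against 4.82% of all genes tested. A further 2 rose, against 5.67%, and 16 were not called (median log2 change of the 31 genes -0.49). The summed scaled signal of the list was 2110 and 2110 in cKO, against 2760 and 2940 in WT. The mean log2 change of the list was -0.46. Set against that mean on each array, the members still had negative differences, from -0.38 (Casq1) and -0.37 (Casq2) to -0.01 (Pvalb). The comparison with that mean is a description without a test, and it depends on which genes enter the mean. Within the list, Neb (-0.87), Myoz1 (-0.76), Ckm (-0.69) and Des (-0.68) had log2 changes like those of the members. Others fell less, as Tnnc2 (-0.40), Tnni2 (-0.31) and Myh1 (-0.19) did, and Myl2 and Myh7 rose. Pvalb, at -0.47, was less negative than the list median. The members therefore did not fall beyond the structural genes as a whole. What part the amount of muscle in each piece of skin had in the members' change was not tested. Among the structural genes Neb, the thin-filament ruler nebulin, fell 1.82-fold, and Myoz1, a Z-disc protein, 1.69-fold, although the Myoz1 call was lost with quantile normalization (log2 change -0.57). Myh3, the embryonic myosin heavy chain, had 46 and 46 in cKO, against 346 and 332 in WT, and fell 8.13-fold (log2 change -3.02, limma adjusted p = 0.000456). With normexp and quantile normalization its log2 change was -1.91. Tcap went the other way without being called, at 111643 and 118312 in cKO, against 84825 and 93159 in WT (log2 change 0.23, limma adjusted p = 0.0204).

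Fibre-type genes did not move alike. Of 9 fast-fibre genes 2 fell, Actn3 (1.69-fold) and Mybpc2 (1.58-fold), against 4.82% of all genes tested. All 9 had lower cKO than WT arrays (median log2 change -0.47), as 48.1% of all genes did. The Mybpc2 call was lost with normexp and quantile normalization (log2 change -0.45), with quantile normalization (-0.44) and with unscaled signals (-0.52). Of 6 slow-fibre genes 1 fell and 2 rose, with a summed level of 56.6 and 57.4 in cKO, against 77.2 and 83.9 in WT. Myl2, the regulatory light chain of slow and cardiac muscle, had 840 and 879 in cKO, against 304 and 350 in WT, and rose 2.38-fold (limma adjusted p = 0.00198). Myh7, the slow and cardiac myosin heavy chain, had 2397 and 2474 in cKO, against 1414 and 1503 in WT, and rose 1.51-fold (limma adjusted p = 0.00172). The Myh7 call was lost without WT replicate 1 (log2 change 0.58) and with the mean of probes (0.58). Tnnt1, the slow troponin T, fell 1.57-fold, a call lost with unscaled signals (log2 change -0.50). Myl3, the essential light chain of slow and cardiac muscle, made up most of that sum. It had 73865 and 77702 in cKO, against 93407 and 105438 in WT. Its log2 change was -0.53 (limma adjusted p = 0.00576) and it was not called, but it was past the threshold without WT replicate 1 (-0.59), and with the mean of probes it had -0.13. The slow-fibre genes thus went both ways beside the lower Casq2.

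Markers of other cells that can make some members were measured beside them. Of 8 heart markers 7 were tested, 1 fell and 1 rose, with a summed level of 2.17 and 2.23 in cKO, against 1.94 and 1.91 in WT. The untested Myl7 was well above background on 1 array, Ankrd1 fell 4.58-fold, and Myh6, at 77 and 83 in cKO, against 44 and 41 in WT, rose 1.70-fold. The log2 change of Ankrd1 was -2.19, and -1.16 with normexp and quantile normalization. In WT the Myh6 probe passed the background test on 1 array of 2, and its call was lost with normexp and quantile normalization (0.36) and with the mean of probes (0.50). A second Myh6 probe gave a log2 change of 0.23, and Myh6 and Myh7 are close relatives whose probes can cross-hybridise. Of 9 smooth muscle markers 2 fell, with a summed level of 80.9 and 80.3 in cKO, against 119 and 121 in WT. These were Acta2 (1.69-fold) and Synpo2 (1.53-fold). Acta2, at 68731 and 70063 in cKO, against 102912 and 109576 in WT, was the largest part of that sum. Its other probes had log2 changes of 0.02, -0.02 and -0.05, and those of Synpo2 had -0.49, 0.49 and -0.3. With the mean of probes the log2 changes of Acta2 and Synpo2 were -0.20 and -0.23. Both calls were also lost with normexp and quantile normalization (-0.54 and -0.51) and with quantile normalization (-0.53 and -0.54), and that of Synpo2 with the 75th percentile of probes above background on all arrays (-0.58) and with unscaled signals (-0.47). Of 7 neuron markers, relevant because some neurons make parvalbumin, 1 was tested and it rose. This was Tubb3, a neuronal tubulin, with 450 and 451 in cKO, against 205 and 222 in WT, a 1.94-fold change (log2 change 0.96, limma adjusted p = 0.000947). Of the others, Nefl and Nefm were not well above background on any array. Nefh reached that on at most 2 arrays per probe, and Snap25, Syt1 and Prph on at most 1. Of 9 markers of keratinocytes and dermis none was called, with sums of 1350 and 1340 in cKO, against 1450 and 1570 in WT. All 13 tested genes of a hair list rose, with sums of 320 and 317 in cKO, against 1.91 and 1.96 in WT. That list joins hair shaft genes with the inner root sheath keratins Krt25, Krt27 and Krt71 and the hair matrix factors Msx2 and Hoxc13. Both groups were nevertheless labelled telogen. The part of these other cells in the members' change was not tested. Fgf18 itself had a log2 change of -0.33 (limma adjusted p = 0.00353) and was not called. The deleted region of the gene is not described in the labels, so this probe does not check them.

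Since the members moved together, the sequence before their gene starts was read from RefSeq (GRCm38.p6), in windows from 250 bases before to 50 after each start. Of the 10 genes 7 matched, with 9 windows. Capitals mark the E-box CANNTG, the core bound by myogenic factors such as MyoD. Both calsequestrin genes, which had the most negative changes, and the pump gene are shown, 5′ to 3′ on the gene's strand.
Casq1 (GRCm38.p6 chr1:172219846-172220145, minus strand): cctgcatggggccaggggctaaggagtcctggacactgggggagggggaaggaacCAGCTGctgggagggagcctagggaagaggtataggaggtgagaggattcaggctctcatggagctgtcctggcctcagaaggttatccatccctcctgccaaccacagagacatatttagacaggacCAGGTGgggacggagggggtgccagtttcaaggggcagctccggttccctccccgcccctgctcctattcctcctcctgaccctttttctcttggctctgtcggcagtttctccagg
Casq2 (GRCm38.p6 chr3:102086165-102086464, plus strand): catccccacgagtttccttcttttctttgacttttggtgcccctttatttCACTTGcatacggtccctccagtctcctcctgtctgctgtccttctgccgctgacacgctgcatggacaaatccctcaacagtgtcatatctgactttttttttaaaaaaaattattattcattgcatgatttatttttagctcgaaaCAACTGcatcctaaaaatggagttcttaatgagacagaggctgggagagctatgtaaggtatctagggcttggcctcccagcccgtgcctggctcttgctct
Atp2a1 (GRCm38.p6 chr7:126463024-126463323, minus strand): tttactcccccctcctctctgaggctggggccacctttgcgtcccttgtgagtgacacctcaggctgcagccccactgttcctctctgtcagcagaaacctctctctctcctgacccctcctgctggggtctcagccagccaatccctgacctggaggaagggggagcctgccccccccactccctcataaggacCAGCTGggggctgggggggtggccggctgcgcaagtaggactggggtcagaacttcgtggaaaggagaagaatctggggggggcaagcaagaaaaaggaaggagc
Both strands were searched. The E-box was found in 7 of the 9 windows, belonging to 6 of the 7 genes, and in 72.3% of all 32851 windows of the same length, so its presence is common. Casq1 and Casq2 held 2 matches each and Atp2a1 held 1. The Ryr1 window had 0 matches, as did a Pvalb window, and neither is printed. The log2 change of Ryr1 (-0.74) was more negative than that of the printed Atp2a1 (-0.66). A MEF2-type motif, CTA and TAG with any 4 bases between them, was found in none of the 9 windows, against 3.69% of all windows, and TATAAA in none, against 13.6%. These matches describe letters in a window and are not binding sites.

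Processing changed the size of the members' change more than its direction. All 10 members had negative log2 changes and an adjusted p under 0.05 in limma in all 17 alternative settings. The count past 1.5-fold was 4 with either form of quantile normalization. It was 3 with unscaled signals, where the log2 changes ran from -0.70 to -0.33. Casq1, Casq2 and Ryr1 were called in all 3 of those settings.

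**Figure D4:**
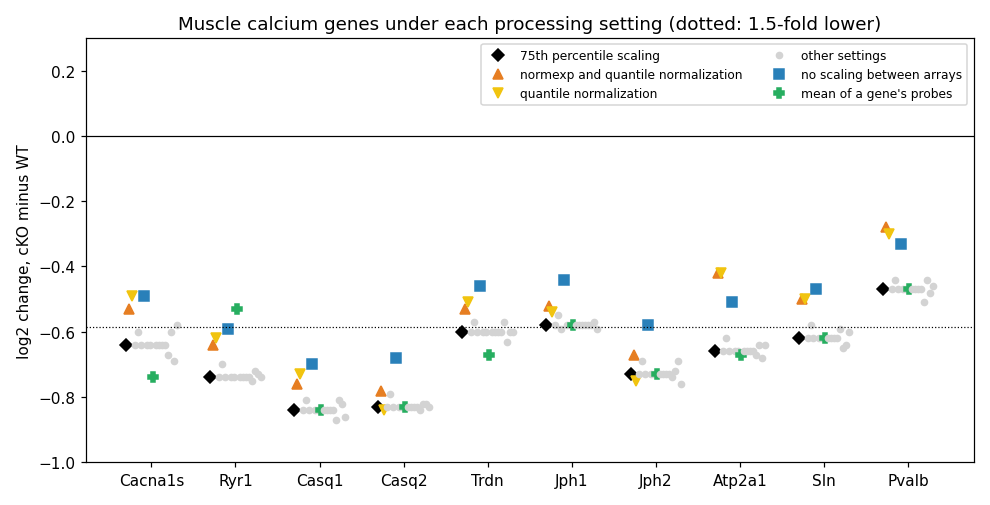
Log2 change (cKO minus WT) of each muscle calcium gene under each setting, with the 75th percentile scaling as black diamonds and the 1.5-fold threshold as a dotted line. All points lie below 0, and Atp2a1 and Pvalb shrink most under quantile normalization, to -0.42 and -0.30.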

How the data were processed

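Polyadenylated back skin RNA of 3 mice per genotype was pooled, and 200 ng was labelled with Cy3, per the labels' protocols. The authors' deposited files hold spot intensity from Agilent Feature Extraction 10.7.3.1, background-subtracted and detrended within each array, per the file headers. The authors' deposited values for the whole series are a linear ratio: each array's intensity divided by 1 number, with no centring per gene and with column medians of 0.112 to 0.114 over non-control spots, made with a tool not given in the sources used here. The cKO arrays had 75th percentiles of 1403 and 1453 in signal, against 1271 and 1316 for the WT arrays, and 62.1% to 69.1% of spots were well above background. All 4 arrays shared 1 slide and 1 scan time, so neither could be fitted. The number of arrays limits the precision.

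The log2 of the processed intensity minus the array's 75th percentile over non-control spots was used. Outlier spots were set missing and spots of a probe averaged. Probes had to be well above background on both cKO arrays or on both WT arrays, and the brightest such probe stood for its gene. Names were updated through RefSeq GRCm38.p6 (26690 probes by accession, 5189 by symbol, 952 by an older symbol, 8343 kept as in the file). For 17555 genes the pools were compared in limma 3.58.1 (R 4.3.3) with two-sided tests, no covariates and p-values adjusted by Benjamini-Hochberg over all genes, and genes were called at an adjusted p under 0.05 and at least 1.5-fold. The script was tested on simulated data. Python 3.11.15, pandas 2.3.3, data.table (version 1.17.8) and matplotlib 3.10.9 were also used. Alternatives covered background correction, normalization, scaling, the probe filter and probe choice, outlier spots, variance moderation, the replicate number as a block and the omission of single arrays.

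The members and lists were chosen with earlier results of these data known. Genes named were all members, every called further triad and general calcium gene with the 4 brightest uncalled of each, and up to 4 called genes of each other list; a few that this rule selects are not reported here. Atp2a2, Myl3, Tcap, Dysf, Fkbp1a, Fkbp1b, Nefl, Nefm, Nefh, Snap25, Syt1, Prph and Myl7 were named after their values were seen.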

Additional observations from a re-analysis of the deposited data

How the results depend on the processing

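The number of members called lower was 8 and stayed within 1.5 times of that except with normexp and quantile normalization (4), quantile normalization (4) and unscaled signals (3), a setting chosen after seeing the data that raised the median change of all genes by 0.14. Under these 3 settings in the same order the median log2 change of the members was -0.53, -0.52 and -0.50, and muscle structure genes called lower numbered 7, 6 and 6, against 13. The median was -0.61 with the 75th percentile of probes above background on all arrays and -0.67 with the mean of probes. Leaving out 1 array at a time gave medians between -0.68 and -0.62, with 7 to 8 members called. The median member change relative to the mean of the muscle structure genes was -0.19. It was -0.23 with normexp and quantile normalization, -0.20 with quantile normalization and -0.22 with the mean of probes. With 1 array left out it lay between -0.21 and -0.18. General calcium genes called lower numbered 2 without the filter on dim probes and 1 to 2 when single arrays were left out, and those called higher numbered 2 with unscaled signals and 1 to 2 when single arrays were left out. The Sln and Trdn calls were also lost with the 75th percentile of probes above background on all arrays (log2 -0.58 and -0.57). Over all genes, 847 were called lower and 483 with normexp and quantile normalization. No member changed direction. Same-numbered arrays share only a number (correlation of deviations -0.0432 across genes), and with the replicate number as a block 8 members and 829 genes were called lower. Signal over background did not limit the members at their representing probes. Among the other probes, the left-out Sln probe was not well above background on any array. The dimmest kept ones were a Cacna1s probe (signals of 76 to 131) and a Trdn probe (129 to 240), both called lower.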

Other observations

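Fat markers, which share the deep skin with the muscle sheet, were mixed. Of 7 white adipocyte markers 2 fell, the hormone gene Lep (1.97-fold) and the adipocyte regulator Pparg (1.55-fold), with summed levels of 241 and 241 in cKO, against 235 and 236 in WT. The Pparg call was lost with normexp and quantile normalization (log2 change -0.56), with quantile normalization (-0.58) and with unscaled signals (-0.49). Of 5 brown adipocyte markers 4 were tested and 1 fell, Cox8b (1.66-fold), a respiratory chain subunit that muscle also makes. Its call was lost with normexp and quantile normalization (-0.50) and with quantile normalization (-0.53).

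The calcium genes Cacna1d, Slc8a3 and Atp2b3 were not called and had duplicates far apart, and were singled out after their values were seen. Cacna1d, a voltage-gated calcium channel, had signals of 8 and 51 in cKO, against 283 and 86 in WT (limma adjusted p = 0.11). The sodium-calcium exchanger Slc8a3 had 56 and 71 in cKO, against 73 and 178 in WT (limma adjusted p = 0.171), and the pump Atp2b3 had 73 and 21 in cKO, against 36 and 39 in WT (limma adjusted p = 0.937).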
